A study of Homo sapiens with 2 samples.

Results

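The genes described here are 10 genes of keratin filaments and epithelial cell junctions, taken by name from the 19362 genes of an RNA sequencing table: the keratins KRT7, KRT8, KRT18 and KRT19, the claudins CLDN1 and CLDN7, the adhesion molecule EPCAM, the tight junction scaffold TJP1, and the plaque proteins DSP and JUP. Of the 10, 9 had a value and 8 had a mean of at least 1 CPM (counts per 1e+06 reads) over both libraries, the level required here of 14815 genes that were compared. KRT19 was below that level, and DSP was not analysed here. The cells were FTC-133, an established line from a human follicular thyroid carcinoma. They were transfected with CHI3L1 siRNA (1 library, labelled as CHI3L1 knockdown) or with control siRNA (1 library, labelled as control), so both groups share the cell line and the transfection. CHI3L1 encodes a secreted, chitin-binding glycoprotein. No statement is made in the labels on the number of cultures in a library, the time after transfection or the siRNA sequences. The labels write of 1 siRNA and the design text of siRNAs against CHI3L1.

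Keratins are the intermediate filament proteins of epithelial cells, and a filament is built from pairs of a type I and a type II keratin. KRT7 and KRT8 are type II and KRT18 and KRT19 type I, and all of these are typical of simple epithelia, to which the thyroid follicle belongs. Claudins seal the space between neighbouring cells at the tight junction and bind by their tails to the scaffold protein ZO-1, the product of TJP1. Desmoplakin (DSP) and plakoglobin (JUP) tie keratin filaments to desmosomes, and EPCAM is a cell surface glycoprotein that is known to interact with CLDN7.

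Each group has 1 library, so differences could not be set against the spread of replicates, and no p-value is given. The comparison is of these libraries, not of the conditions. Recovered reads numbered 19467345 in the CHI3L1 siRNA library and 15837449 in the control siRNA library. CHI3L1 itself stood at 48.6 CPM (947 reads) in the CHI3L1 siRNA library, and at 140 CPM (2215 reads) with control siRNA. The thyroid factors PAX8 (71.2 and 82.8 CPM) and NKX2-1 (112 and 88.6 CPM) were present in the CHI3L1 siRNA and control siRNA libraries, both with antisense genes that share exonic bases, while TG, the gene of thyroglobulin, had 14 and 10 reads, FOXE1 had 19 and 1 (ratio 15.4, 2.45 to 640.3), and 0 of the 4 compared thyroid markers passed 1.5-fold. Of the simple epithelium markers, KRT8 and KRT18 had at least 482 reads in each library, but CDH1, which encodes E-cadherin, had only 31 reads in the CHI3L1 siRNA library and 17 in the control siRNA library. The fibroblast markers, all 8 with values, summed to 7423 CPM in the CHI3L1 siRNA library and 3298 CPM in the control siRNA library, mostly from COL1A1 and COL1A2, the 2 of 7 compared that were at least 1.5-fold higher. PDGFRA had 2 and 9 reads. Of all 14815 genes compared, 7.73% were at least 1.5-fold higher and 13.4% lower. Endothelial markers (5 of 6 with values) summed to 15.6 and 17.8 CPM, and immune markers (3 of 7) to 6.0 and 5.38 CPM. Of the 5 endothelial markers, all compared, 2 were higher and 3 lower in the CHI3L1 siRNA library. By at least 1.5-fold, 0 were higher and 1 lower, PECAM1 at 3.80 and 7.34 CPM. KDR went the other way, at 4.05 and 2.47 CPM (ratio 1.64, 1.11 to 2.48). The part of these markers in the results was not tested, and in bulk RNA fewer cells with a transcript and less of it per cell cannot be told apart.

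The results turn on CLDN1 and CLDN7, and the bases before their annotated start sites were searched for a motif. The motif is the E-box CAGGTG, or CACCTG on the other strand, which repressors of epithelial genes such as SNAI2 and ZEB1 are known to bind. Both were transcribed here, SNAI2 at 41.8 CPM in the CHI3L1 siRNA library and 38.8 CPM in the control siRNA library, and ZEB1 at 72.2 and 60.2 CPM. RefSeq promoter windows on GRCh38.p14 were given for 6 of the 10 genes. Sequences are given 5′ to 3′ on the strand of the gene, with E-boxes in capitals. The JUP stretch is shown as a gene that stood near equal in both libraries.
CLDN1, minus strand, chr3:190322476-190322696: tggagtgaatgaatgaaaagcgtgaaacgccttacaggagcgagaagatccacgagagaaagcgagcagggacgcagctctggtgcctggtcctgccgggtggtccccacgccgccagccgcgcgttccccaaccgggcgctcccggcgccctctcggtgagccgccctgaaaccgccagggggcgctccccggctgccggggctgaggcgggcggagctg
CLDN7, minus strand, chr17:7262479-7262508: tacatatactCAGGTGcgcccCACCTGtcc
JUP, minus strand, chr17:41786007-41786036: tggcccCACCTGccgagCAGGTGagcgcac
CLDN7 has 2 annotated windows of 250 bases. That before the start of its principal transcript held 4 E-boxes, beginning 174, 135, 20 and 9 bases before the start site, and the other held 0. The window of CLDN1 held 0, as did that of KRT8. One of the JUP windows held 2, at 54 and 43 bases, 1 of the 4 TJP1 windows held 1 (its start site lies upstream of TJP1 as GENCODE release 29 annotates it), and the DSP window held 2. Of all 35116 windows of this length, 17.5% held at least 1 E-box and 0.122% held 4 or more. A match is of letters alone. All 30 bases shown for CLDN7 and all 30 for JUP also lie in an exon that GENCODE release 29 annotates for the same gene. Of those shown for CLDN1, 0 do, but that follows from how the stretch was cut. It ends 30 bases before the start site, just outside CLDN1 as annotated, and the bases nearer the start site are not shown.

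The claudins and EPCAM were the members that were higher in the CHI3L1 siRNA library by at least 1.5-fold. CLDN1 had 139 reads (7.13 CPM) in the CHI3L1 siRNA library and 51 reads (3.23 CPM) in the control siRNA library. The ratio of its CPM was 2.21, with a 95% exact interval of 1.59 to 3.11 that covers counting error only, as do the other intervals here. CLDN7 had 144 reads (7.39 CPM) in the CHI3L1 siRNA library and 62 reads (3.92 CPM) in the control siRNA library, a ratio of 1.88 (1.39 to 2.58). EPCAM had 78 reads (4.0 CPM) and 32 reads (2.02 CPM) in the same order of libraries, a ratio of 1.98 (1.29 to 3.08). Each of the 3 was thus higher in the CHI3L1 siRNA library, and each interval held values above 1 only, but all 3 genes were of low level and only that of CLDN1 lay wholly above 1.5. Their summed level was 18.5 CPM in the CHI3L1 siRNA library and 9.17 CPM in the control siRNA library, a ratio of 2.02 (1.66 to 2.47).

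**Figure D1:**
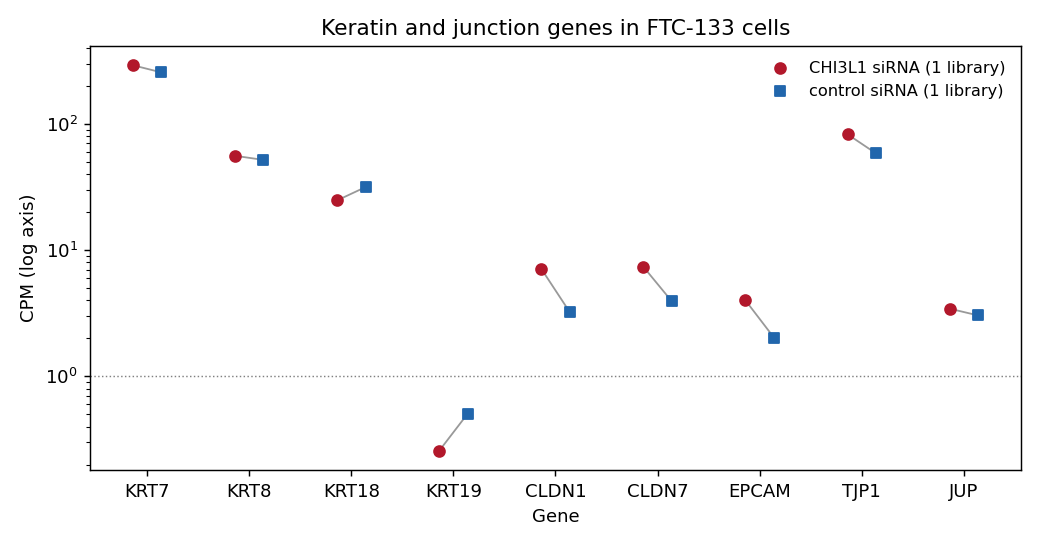
CPM (log axis) of the 9 members with a value, with the CHI3L1 siRNA library as circles at left and the control siRNA library as squares at right. CLDN1, CLDN7 and EPCAM stood higher in the CHI3L1 siRNA library, KRT7, KRT8 and JUP were near level, and KRT19 lay under the dotted line at 1 CPM in both.

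Counted on the log2 scale with 1 CPM added to each value, which understates the difference of low genes, 3 of the 8 compared members were at least 1.5-fold higher, 0 were at least 1.5-fold lower and 5 passed neither. Among all 14815 genes compared, 7.73% passed 1.5-fold upwards and 13.4% downwards. Among the 4794 of them that averaged under 10 CPM, the range of CLDN1, CLDN7 and EPCAM, 6.53% were at least 1.5-fold higher and 13.1% lower. No member was 2-fold higher or lower (0 of 8 each way), against 1.03% and 4.41% of all genes. The log2 folds were 0.94 for CLDN1, 0.77 for CLDN7 and 0.73 for EPCAM, above those of 98.6%, 96.9% and 96.2% of all genes compared. The median over the 8 members was 0.34, beside 0.01 over all genes. The 10 genes were chosen with earlier results of these libraries known, and these counts are descriptions.

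CLDN7 shares 38 exonic bases at its 3′ end with ELP5, an Elongator subunit gene on the opposite strand, and the sources used here do not state a strand setting of the counting. ELP5 had more reads than CLDN7, at 619 (31.7 CPM) in the CHI3L1 siRNA library and 598 (37.8 CPM) with control siRNA. ELP5, with a log2 fold of −0.25, and CLDN7 stood on different sides of 0, and the shared bases are 2.46% of the principal CLDN7 transcript. A further 269 bases overlap a read-through gene on the same strand (AC003688.1), which was not analysed here. CLDN1 and EPCAM share no exonic base with another annotated gene, and 2 of the 4 members free of such overlap with a gene in the table were at least 1.5-fold higher.

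The simple keratins KRT7 and KRT8 were among the most abundant members, and no keratin passed 1.5-fold. KRT7 had 5678 reads (291 CPM) in the CHI3L1 siRNA library and 4042 reads (256 CPM) in the control siRNA library, a ratio of 1.14 (1.09 to 1.19). KRT8, the other type II keratin, had 1089 reads (55.9 CPM) and 819 reads (51.8 CPM) in these libraries, a ratio of 1.08 (0.984 to 1.18). KRT18, the usual type I partner of KRT8, had 482 reads (24.7 CPM) in the CHI3L1 siRNA library and 499 reads (31.6 CPM) in the control siRNA library, a ratio of 0.783 (0.690 to 0.890). KRT18 was therefore lower in the CHI3L1 siRNA library, KRT7 slightly higher, and KRT8 had an interval that held 1. KRT19, also of type I, was nearly absent, with 5 reads (0.257 CPM) in the CHI3L1 siRNA library and 8 reads (0.506 CPM) in the control siRNA library. The summed level of the 4 keratins was 372 CPM in the CHI3L1 siRNA library and 339 CPM in the control siRNA library, a ratio of 1.10 (1.06 to 1.14).

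Among the 4 keratin members alone, the balance of types differed more than their sum. Type II reads (KRT7 and KRT8) outnumbered type I reads (KRT18 and KRT19) by 13.9 (12.7 to 15.3) in the CHI3L1 siRNA library and by 9.59 (8.75 to 10.5) in the control siRNA library. Reads of KRT8 per read of KRT18 were 2.26 (2.03 to 2.52) and 1.64 (1.47 to 1.84) in these libraries. KRT7 held 78.3% of the reads of the 4 keratins in the CHI3L1 siRNA library and 75.3% in the control siRNA library. In each of these pairs the counting intervals of the libraries did not overlap, which says nothing on variation between cultures. Of 35 further keratins, 6 had values and 3 were compared, with 1 at least 1.5-fold higher and 0 lower (7.73% and 13.4% over all genes compared). That gene was KRT80, a type II keratin, at 43.6 CPM in the CHI3L1 siRNA library and 26.2 CPM in the control siRNA library (ratio 1.67, 1.48 to 1.88). Corrected for length and GC content of the transcript, its log2 fold was 0.55, beside 0.72 in the deposited values, and 0 of the 3 passed 1.5-fold. The type I keratins KRT10 and KRT12 had ratios of 0.80 (0.738 to 0.867) and 1.03 (0.832 to 1.27). KRT10 stood at 61.4 CPM in the CHI3L1 siRNA library and 76.8 CPM in the control siRNA library, above KRT18. KRT10, KRT12 and KRT80 are left out of the balance given here, which is therefore not that of all keratins. The balance is of uncorrected reads, and the log2 fold of KRT18 was −0.34 before and −0.16 after the correction. KRT5 and KRT14, which mark stratified epithelium, were not analysed here.

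Reads of KRT8 and KRT18 are the least certain of the members. The genes lie next to each other on chromosome 12, KRT8 on the minus strand (52897187 to 52949954, GRCh38) and KRT18 on the plus strand (52948871 to 52952901), and 525 exonic bases are shared on opposite strands. Of the principal transcripts, this takes 8.14% of KRT8 and 24.0% of KRT18. Many processed pseudogenes are also annotated, 50 for KRT8 and 67 for KRT18. Windows of 50 bases in the principal transcript were sought, letter for letter, on either strand of transcripts of other genes. They were found for 36.9% of KRT8 and 47.6% of KRT18, against 10.8% of KRT7, 1.79% of KRT19, 14.7% of CLDN7, 2.57% of EPCAM and 0% of CLDN1, TJP1 and JUP. Genes that overlap a member were among those searched, so the shares of KRT7, KRT8, KRT18 and CLDN7 in part repeat the overlaps given here. The 5 KRT8 pseudogenes with values summed to 185 reads in the CHI3L1 siRNA library and 123 in the control siRNA library, and the 3 of KRT18 to 28 and 44 reads. KRT7 overlaps its antisense gene KRT7-AS over 282 exonic bases, which take 12.6% of the principal KRT7 transcript. KRT7-AS had 50 and 58 reads, and the effect of the shared bases on the reads of KRT7 was not tested.

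**Figure D2:**
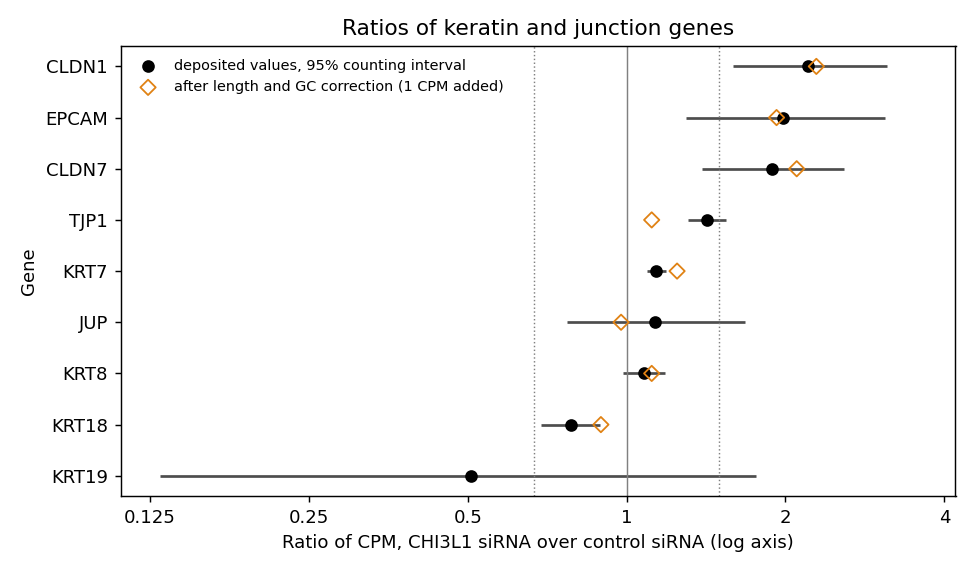
Ratio of CPM, CHI3L1 siRNA over control siRNA (log axis), for each member with a value. Filled points are deposited values with 95% counting intervals, open diamonds are corrected for length and GC content of the transcript, and dotted lines mark 1.5-fold. CLDN1, EPCAM and CLDN7 lie highest by either value, and the interval of KRT19 spans 0.130 to 1.76.

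The scaffold gene TJP1 and the plaque gene JUP did not pass 1.5-fold. TJP1 had 1612 reads (82.7 CPM) in the CHI3L1 siRNA library and 921 reads (58.2 CPM) in the control siRNA library, a ratio of 1.42 (1.31 to 1.54) that lay above 1 with an interval that held 1.5. JUP had 67 reads (3.44 CPM) in the CHI3L1 siRNA library and 48 reads (3.04 CPM) in the control siRNA library, and its ratio of 1.13 (0.770 to 1.68) held 1. A difference in JUP was not detectable at this depth.

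Per kilobase of principal transcript, KRT7 stood far above the rest, at 166 CPM per kilobase (162 to 170) in the CHI3L1 siRNA library and 146 (141 to 150) in the control siRNA library. KRT8 followed at 26.3 and 24.4 CPM per kilobase, then KRT18 at 15.8 and 20.2, TJP1 at 10.4 and 7.33, CLDN7 at 4.79 and 2.54, EPCAM at 2.32 and 1.17, CLDN1 at 2.05 and 0.926, JUP at 0.983 and 0.868, and KRT19 at 0.185 and 0.364, each in the CHI3L1 siRNA and the control siRNA library. The order was the same in both. Counting intervals overlapped for the neighbours EPCAM and CLDN1 in both libraries, for CLDN1 and JUP in the control siRNA library alone, and for JUP and KRT19 there as well. EPCAM and JUP also overlapped in the control siRNA library, but not in the CHI3L1 siRNA library, where EPCAM (1.83 to 2.90) stood above JUP (0.762 to 1.25).

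Folds in these libraries moved with transcript length, which touches the members in unequal measure. The median log2 fold was −0.62 for the 599 coding genes with a principal transcript of at most 1000 nt, −0.24 above that and up to 2000 nt, 0.03 up to 4000 nt and 0.25 for longer ones. CLDN7 (1542 nt), KRT18 (1562 nt), EPCAM (1724 nt) and KRT7 (1754 nt) fall in the band with the median of −0.24, and 2.81% of its genes passed 1.5-fold upwards and 23.4% downwards. TJP1 (7950 nt) is in the band of the longest, where 14.4% were at least 1.5-fold higher. After subtraction of a trend in length, GC content and coding length, the log2 fold of TJP1 was 0.16, beside 0.50 in the deposited values. That of KRT18 was −0.16, beside −0.34, and that of KRT7 was 0.32, beside 0.19. CLDN1, CLDN7 and EPCAM stood at 1.19, 1.07 and 0.94 after the correction. So 3 of 8 members were again at least 1.5-fold higher and 0 lower, against 7.47% and 6.15% of the 12660 genes corrected, and 2 were at least 2-fold higher and 0 lower, against 1.18% and 1.32%. The median of the members was 0.24, beside 0.07 over all corrected genes.

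**Figure D3:**
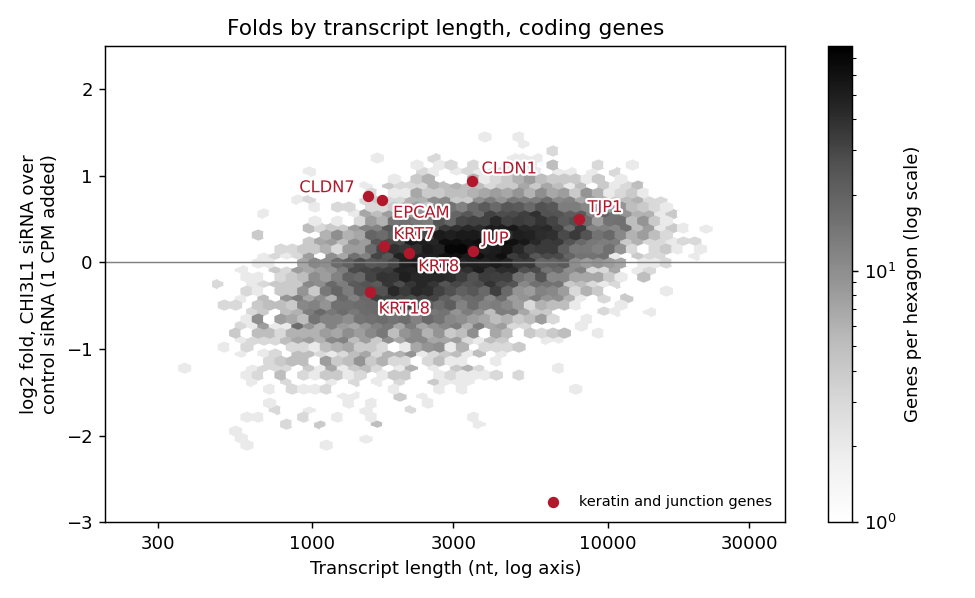
log2 fold (1 CPM added) against the length of the principal transcript (log axis) for coding genes averaging at least 1 CPM, shaded by the number of genes, with the 8 compared members as points. CLDN7 and EPCAM lie above most genes of their length, whereas TJP1 lies amid the long transcripts.

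The wider junction was described with lists by complex. Of all 14815 genes compared, 7.73% were at least 1.5-fold higher and 13.4% lower. Of the 12660 genes corrected, 7.47% were higher and 6.15% lower. These shares are to be read beside the counts of every list below. Desmosomal genes, the partners of DSP and JUP, had 6 of 14 with values, all 6 compared, with 3 at least 1.5-fold higher and 0 lower (median log2 fold 0.61). They were PPL, which encodes periplakin and links keratins to the plaque (22.8 CPM in the CHI3L1 siRNA library and 8.85 CPM in the control siRNA library, ratio 2.58, 2.13 to 3.14), the desmosomal cadherin DSG2 (235 and 123 CPM, ratio 1.91, 1.81 to 2.02) and its partner DSC2 (4.26 and 2.02 CPM, ratio 2.10, 1.38 to 3.27). After the correction their log2 folds were 0.90, 0.76 and 0.68. The plakophilin PKP3 had 45 reads and 23 reads in these libraries, a ratio of 1.59 (0.940 to 2.75) that held 1.

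Genes of hemidesmosomes and keratin linkers, which fasten keratins to the basement membrane, had 8 of 9 compared, with 5 at least 1.5-fold higher and 0 lower (median 0.64). ITGA6 and ITGB4, the subunits of the hemidesmosomal integrin, had 155 and 148 CPM in the CHI3L1 siRNA library, against 75.1 and 75.4 CPM in the control siRNA library. The laminin chain genes LAMA3 and LAMB3 had log2 folds of 0.70 and 0.59. The corrected values of LAMA3 and LAMB3 stood at 0.22 and 0.32, and 4 of 8 genes passed 1.5-fold. CD151, a tetraspanin of the hemidesmosome, was among those 4, at 0.59 after the correction and 0.33 in the deposited values, and it shares exonic bases with POLR2L on the opposite strand. Plectin (PLEC), the linker of keratins to the integrin, had a log2 fold of 0.39, and −0.06 after the correction.

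Among tight junction membrane proteins other than claudins, 9 of 13 were compared, with 3 at least 1.5-fold higher and 0 lower (median 0.37). They were the junctional adhesion molecule F11R (10.7 CPM in the CHI3L1 siRNA library and 5.69 CPM in the control siRNA library, ratio 1.87, 1.46 to 2.43), the adhesion protein CXADR (33.9 and 20.9 CPM, ratio 1.62, 1.42 to 1.86) and MARVELD2, which encodes tricellulin (5.23 and 3.04 CPM, ratio 1.72, 1.21 to 2.48). The log2 folds of these 3 after the correction were 0.65, 0.71 and 0.71. Occludin (OCLN) had 76 and 44 reads, a ratio of 1.40 whose interval held 1 (0.954 to 2.08).

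Of 21 further claudins, 8 were compared and 0 passed 1.5-fold in either direction (median 0.04). CLDN4 had 72 reads in the CHI3L1 siRNA library and 56 in the control siRNA library, a ratio of 1.04 (0.725 to 1.51), and CLDN3 had 19 and 17 reads (0.907, 0.446 to 1.86). The highest log2 fold was that of CLDN12 (0.47), at 78.2 and 56.2 CPM, which was 0.86 after the correction and the sole one of the 8 past 1.5-fold there. It shares exonic bases on the same strand with GTPBP10 and CDK14, so its reads are uncertain. The lowest of the 8 was CLDN11, at 12.0 CPM in the CHI3L1 siRNA library and 15.4 CPM in the control siRNA library. Its ratio was 0.778 (0.647 to 0.935), with a log2 fold of −0.34, and −0.16 after the correction. Of the 8 log2 folds in the deposited values, 5 lay above 0 and 3 below. CLDN11 and CLDN12 were named after their values were seen. The intervals of CLDN1 (1.59 to 3.11) and CLDN4 (0.725 to 1.51) did not overlap. Those of CLDN7 (1.39 to 2.58) and CLDN4 did overlap, as did those of CLDN1 and CLDN3. Differences between claudins were not tested.

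Scaffold and polarity proteins, to which TJP1 belongs, had 21 of 25 compared, with 3 at least 1.5-fold higher and 0 lower (median 0.27). These were MAGI1, PATJ and CGNL1, scaffolds of the tight junction, with log2 folds of 0.81, 0.80 and 0.61. After the correction they stood at 0.48, 0.48 and 0.17, 0 of 21 were at least 1.5-fold higher, 1 was lower and the median was −0.02. Cingulin (CGN) had a log2 fold of 0.10. Before the correction, 3 of 21 was near the 14.4% at least 1.5-fold higher among all coding genes above 4000 nt. MAGI1, PATJ and CGNL1 are of that length.

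Adherens junction genes had 11 of 12 compared, with 1 at least 1.5-fold higher and 0 lower (median 0.36, and 0.01 after the correction). That gene was CDH3, which encodes P-cadherin, at 29.4 CPM in the CHI3L1 siRNA library and 13.4 CPM in the control siRNA library (ratio 2.20, 1.87 to 2.58). An antisense gene with 13 and 8 reads overlaps CDH3, and the effect of the shared bases was not tested. The count of 1 of 11 was near the 7.73% over all genes compared. The catenins, which JUP resembles, had log2 folds of 0.01 for CTNNB1 and 0.53 for CTNND1. CTNNB1 had 8485 and 6824 reads, a ratio of 1.01 (0.977 to 1.04).

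**Figure D4:**
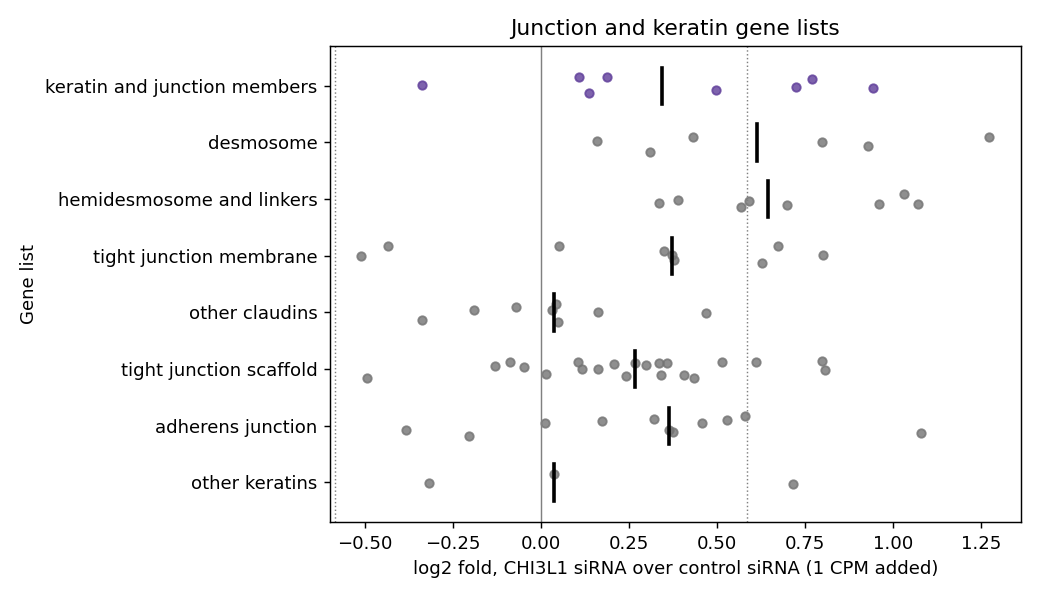
log2 fold (1 CPM added) of each compared gene in 8 lists, with the list median as a black bar and dotted lines at 1.5-fold. The keratin and junction members are in purple, with a median of 0.34. The medians run up to 0.61 for desmosome and 0.64 for hemidesmosome genes, and are 0.04 for other claudins and other keratins.

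Among relatives, partners and proteases of EPCAM, 9 of 11 were compared, with 0 at least 1.5-fold higher and 1 lower. TSPAN8, a tetraspanin, stood at 128 CPM in the CHI3L1 siRNA library and 270.3 CPM in the control siRNA library, a ratio of 0.472 (0.449 to 0.496), with a log2 fold of −0.53 after the correction, where 0 of the 9 passed 1.5-fold. The sheddase ADAM10 had a log2 fold of 0.43, and SPINT2, an inhibitor of membrane serine proteases, of −0.30. ST14 averaged 0.845 CPM and so was not compared. It had 28 reads in the CHI3L1 siRNA library and 4 in the control siRNA library, a ratio of 5.68 (1.99 to 22.3). Of other intermediate filaments, 1 of 8 compared was at least 1.5-fold higher and 0 lower. That was the neurofilament gene NEFL (log2 fold 1.05). VIM, the vimentin of mesenchymal cells, stood at 2282 CPM in the CHI3L1 siRNA library and 1534 CPM in the control siRNA library, a ratio of 1.49 (1.46 to 1.51). The corrected log2 folds were 0.84 for NEFL and 0.60 for VIM, so 2 of 8 then passed 1.5-fold.

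Transcription and splicing factors known to control epithelial genes had 14 of 20 with values and 11 compared, with 4 at least 1.5-fold higher and 0 lower (median 0.34). The list mixes activators and repressors of epithelial genes, and the 4 were of both kinds. The activators GRHL1, TP63 and KLF5 had log2 folds of 0.83, 0.67 and 0.65, and the repressor ZEB2 of 0.61. With the correction TP63, KLF5 and ZEB2 were at 0.55, 0.54 and 0.50, short of 1.5-fold, and GRHL1 was at 0.75. GRHL1 rested on 35 reads in the CHI3L1 siRNA library and 9 in the control siRNA library, and TP63 on 31 and 10. In the control siRNA library these genes stood at 0.569 and 0.632 CPM. Both reached the required mean of 1 CPM only through the library where they were higher, so their calls lean on that filter. The repressors SNAI1, SNAI2 and ZEB1 had log2 folds of 0.42, 0.10 and 0.26, and corrected values of 0.65, 0.45 and 0.23. SNAI1 thus passed 1.5-fold once corrected, as did TWIST2, also a repressor (0.34, and 0.75 corrected), so that 3 of 11 were then higher and 0 lower (median 0.50). GRHL2 and ESRP1 were not analysed here.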

How the data were processed

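Per the labels' protocols, Trizol-extracted total RNA (1 ug) went into an Illumina TruSeq RNA kit, with 1 library per group. The authors deposited 1 table of CPM values. Tools named in the submitters' processing notes are HISAT2, featureCounts, Trimmomatic, FastQC and MultiQC, with the build GRCh38 and no versions. The sources used here state no normalisation tool, low-count filter or strand setting. The values show that each CPM equals whole reads, plus 0.001, multiplied by 0.0513 (CHI3L1 siRNA) or 0.0632 (control siRNA). All values (100%) came out whole within 0.01 read. Every gene had at least 6 reads in 1 library. Symbols were found for 17134 of 19362 identifiers.

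Log2 folds are CHI3L1 siRNA over control siRNA with 1 CPM added, for genes averaging at least 1 CPM. Ratios use recovered reads, with 95% exact (Clopper-Pearson) intervals, and levels per kilobase have exact Poisson intervals. These cover counting error only, and reads without molecular identifiers may make them too narrow. A count of 0 allows 3 reads, or 0.154 CPM (CHI3L1 siRNA) and 0.190 CPM (control siRNA). Transcripts and overlaps came from GENCODE release 29, with the APPRIS principal, best supported, then longest transcript. The correction subtracted a spline (5 degrees of freedom a term, patsy 1.0.2) in GC content, transcript length and coding length. The fit used 12540 coding genes outside all lists. The correction was tested on simulated data with a planted trend in transcript length alone, which the spline contains. That test does not cover the GC and coding length terms. No count model was run. Members and lists were chosen with earlier results of these data known. Named are all members and, per list, up to 4 genes with the largest folds past 1.5-fold and textbook genes fixed with the list. LAMB3, KRT10, KRT12, CD151, NKX2-1, PAX8 and other genes beyond this rule were chosen after their values were seen. Alternatives are given in the closing section. Some genes counted in the lists are not reported here by name.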

Additional observations from a re-analysis of the deposited data

How the results depend on the processing

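The count of 3 members at least 1.5-fold higher was 0 at a pseudocount of 10 CPM, 0 when members had to average 10 CPM, which left 4, and 1 when the counting interval had to lie wholly beyond 1.5-fold. Each of these settings by its construction shrinks or leaves out low genes. The count of 0 members at least 2-fold higher was 1 at a pseudocount of 0.5 CPM, 1 with no pseudocount and 2 after the length and GC correction. Under the other settings run (no filter on the mean, a trimmed mean of log ratios, centring on genes that average 50 CPM or more, and equal totals) these counts moved by at most 1.5 times, as did the count past 1.5-fold over members with no overlapping exon, where 2-fold was not counted. No member was at least 1.5-fold lower under any setting run. The median of the members lay between 0.15 (members averaging 10 CPM or more) and 0.35 (equal totals). Equal totals and no pseudocount were chosen after seeing the data. The yardstick for a move was the log2 distance from the centre to an end of the member's counting interval. Of 56 log2 folds of single members under alternatives, 51 moved by less, 5 by more, and 0 of those past 1.5-fold changed sign. The depth limits JUP, KRT19 and EPCAM most. No paired analysis was possible because each group has 1 library.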
